A study of Mus musculus with 6 samples.

Results

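The 296 windows described here lie on mouse chromosome 1 within 20 Mb of Idh1, the gene that was altered in the knock-in mice. A window is a stretch of 1000 bases between bases 45190000 and 85190000 (build mm10) in which at least 5 CpG positions were read in all 6 libraries, and the 40 kb around Idh1 itself, bases 65150000 to 65190000, were left out. The 296 windows are part of 24778 autosomal windows built in the same way, of which 24480 lie outside the interval and serve as background and 2 lie in the excluded stretch. They hold 5912 positions in all, between 5 and 114 per window with a median of 12, and each strand of a CpG counts as a position. The level of a window is the mean over its positions of the percentage of reads that kept a C after bisulfite treatment, and differences between levels are in percentage points.

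The assay was eRRBS, an enhanced form of reduced representation bisulfite sequencing that samples CpG-rich restriction fragments. KI mice carried 1 conditional knock-in allele (IDH1+/lsl VavCre+), switched on by Cre recombinase under the Vav promoter, which is active in blood cells. Control mice were littermates with the same Cre and no such allele (IDH1+/+ VavCre+). All were C57BL/6 males aged 7 to 10 months, and marrow was pooled from 6 mice per group. From each genotype 3 sorted populations were read, each as 1 library. They were long-term haematopoietic stem cells (LT-HSC, Lin- Sca+ Kit+ CD150+ CD48-), short-term haematopoietic stem cells (ST-HSC, CD150+ CD48+ in the same gate) and multipotent progenitors (MPP), which were CD150- in that gate. No group had a replicate library, so each comparison below sets 1 library of pooled marrow against another. By the deposited names, KI and Control libraries ran on different lanes, and lane effects cannot be told apart from those of genotype. The cell types are those of the sort gates, since DNA methylation alone gives no marker check here.

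IDH1 is a cytosolic enzyme that makes 2-oxoglutarate, a cofactor of the TET enzymes, which oxidise methylated cytosine. Mutant forms of IDH1 known from leukaemia and glioma make 2-hydroxyglutarate, which inhibits these enzymes. Chromosome sequence close to an altered gene is inherited along with it, and the question put to these windows is whether they differ between KI and Control more or less often than other autosomal windows. CpG-rich promoters are as a rule unmethylated in every cell type, whereas CpGs between genes and in gene bodies are mostly methylated.

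The RefSeq promoter table (GRCm38.p6, the same build as mm10) places 423 promoters of 349 genes in the interval, and 95 of them, from 87 genes, had at least 5 shared positions. These 95 had a median of 28 CpGs in 300 bases, against 8 over all promoters of the interval and 7 over the whole table, which is the selection for CpG-rich sequence that the assay makes. Their median level over the 6 libraries was 2.72%. Of the 95, 78 were under 5% and 5 were at 10% or more. The 3 stretches of 280 bases printed here show the range, each from 250 bases before the transcription start to 30 bases after it, 5′ to 3′ on the gene's strand. Capitals mark the CpGs with a position read in all 6 libraries. The first 2 are the measured promoters with the highest levels, Boll (chr1:55362699-55362978, minus strand), which encodes an RNA-binding protein of germ cells, and Speg (chr1:75375047-75375326, plus strand), which encodes a kinase of striated muscle. The last is Mars2 (chr1:55236927-55237206, plus strand), which encodes the mitochondrial methionyl-tRNA synthetase and starts next to the window with the largest difference in the interval.
Boll: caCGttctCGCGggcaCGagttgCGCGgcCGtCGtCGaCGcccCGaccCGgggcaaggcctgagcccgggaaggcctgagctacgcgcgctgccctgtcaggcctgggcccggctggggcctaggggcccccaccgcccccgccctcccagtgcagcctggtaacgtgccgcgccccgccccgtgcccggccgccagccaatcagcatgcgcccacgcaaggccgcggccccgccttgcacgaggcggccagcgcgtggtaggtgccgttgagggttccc
Speg: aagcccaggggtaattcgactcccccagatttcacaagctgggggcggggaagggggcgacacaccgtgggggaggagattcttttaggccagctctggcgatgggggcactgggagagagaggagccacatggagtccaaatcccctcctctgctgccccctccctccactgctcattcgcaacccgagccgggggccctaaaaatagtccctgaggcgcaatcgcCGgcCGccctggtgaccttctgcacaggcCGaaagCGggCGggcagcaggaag
Mars2: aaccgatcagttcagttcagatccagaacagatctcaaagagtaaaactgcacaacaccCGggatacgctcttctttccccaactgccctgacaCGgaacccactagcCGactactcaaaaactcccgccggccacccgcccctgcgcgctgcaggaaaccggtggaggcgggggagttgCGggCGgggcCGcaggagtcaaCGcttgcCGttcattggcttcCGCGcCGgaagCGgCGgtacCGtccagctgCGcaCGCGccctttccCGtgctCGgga

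The Boll stretch has 36 CpGs, and 15 positions in 12 of them were shared. Their mean level was 57.2, 65.0 and 63.1% in KI LT-HSC, ST-HSC and MPP, against 60.2, 62.0 and 55.1% in the Control libraries of the same cell types. The capitals sit at the 5′ end, so the level is that of the CpGs farthest before the start. The genotypes overlapped, with KI lower in LT-HSC and higher in the other 2 cell types.

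The Speg stretch has fewer CpGs, 15, of which 5 next to the transcription start carried 8 shared positions. They averaged 38.9, 55.8 and 37.9% in KI LT-HSC, ST-HSC and MPP, against 33.3, 26.6 and 18.7% in Control. By these means all 3 KI libraries lay above all 3 Control libraries. The reads behind these levels, summed over the 8 positions, numbered 132 to 349 in KI and 248 to 500 in Control. Single positions went both ways. In LT-HSC, base 75375303 had 37.0% in KI and 0% in Control, and the other strand of that CpG had 0% and 30.4%. The window of 29 positions from base 75375001 differed by 4.08, 18.5 and 10.7 points in LT-HSC, ST-HSC and MPP.

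Mars2 had 24 shared positions in 19 of its 28 CpGs, at 1.29, 1.03 and 1.80% in KI and 1.13, 1.36 and 1.74% in Control, in the order LT-HSC, ST-HSC, MPP. This unmethylated promoter is typical of the interval. Of the 296 windows, 131 overlapped a listed promoter of 300 bases, with a median level of 2.98%. Another 138 windows in gene bodies, some of them close to a start, had a median of 6.28%. The 27 intergenic windows stood at 82.7%. The background medians in the same order were 3.02, 8.0 and 77.7%.

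The libraries held 53884467, 38284759 and 51951665 reads in KI LT-HSC, ST-HSC and MPP, against 48966606, 39461301 and 44752796 in Control, counted as coverage summed over positions, with median coverage of 27 to 45 reads. The interval took between 1.12 and 1.20% of the autosomal reads of each library. Of 15442 positions of the interval listed for any library, 6717 were shared by all 6. The sources used here do not say whether PCR copies were removed, so the intervals on reads below cover at most counting error. Reads of a window are summed over its positions, so a read spanning several positions counts at each. The intervals on reads can thus be too narrow even for counting error. The intervals on shares and medians of windows cover the number of windows and no spread between mice or libraries.

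At a threshold of 10 points, the shares of windows that differed between KI and Control were close to those of the background. At least 10 points higher in KI in all 3 cell types were 2 windows (0.676%, exact binomial 95% interval 0.0819 to 2.42%), in the lncRNA gene Gm10561 and in Tns1, against 0.903% of the background. None of the 296 was 10 points lower in all 3, which allows a share of up to 1.24% (exact binomial interval), against 0.0531% of the background. The interval of the share thus covers the background value in both directions. Both windows also passed at 20 points, where 0.676% of the 296 stand beside 0.127% of the background (31 windows), a value that the same interval covers. None was 20 points lower in all 3, against 0.0123% of the background. Without the LT-HSC libraries, 2.36% of the 296 windows were higher in the remaining cell types, against 2.11% of the background, and without the ST-HSC or the MPP libraries 1.01%, against 1.35% and 1.72%.

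Within single cell types, higher windows outnumbered lower ones. In KI LT-HSC, 8 windows (2.70%) were higher by 10 points or more and 3 (1.01%) were lower by as much, against 3.77% and 1.63% of the background. ST-HSC had 10 higher (3.38%) and 3 lower (1.01%) windows, against 5.10% and 0.662%. MPP had 14 higher (4.73%) and 4 lower (1.35%), against 5.47% and 1.72%. The shares of higher windows were all below the background share, and each binomial interval held it.

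**Figure D1:**
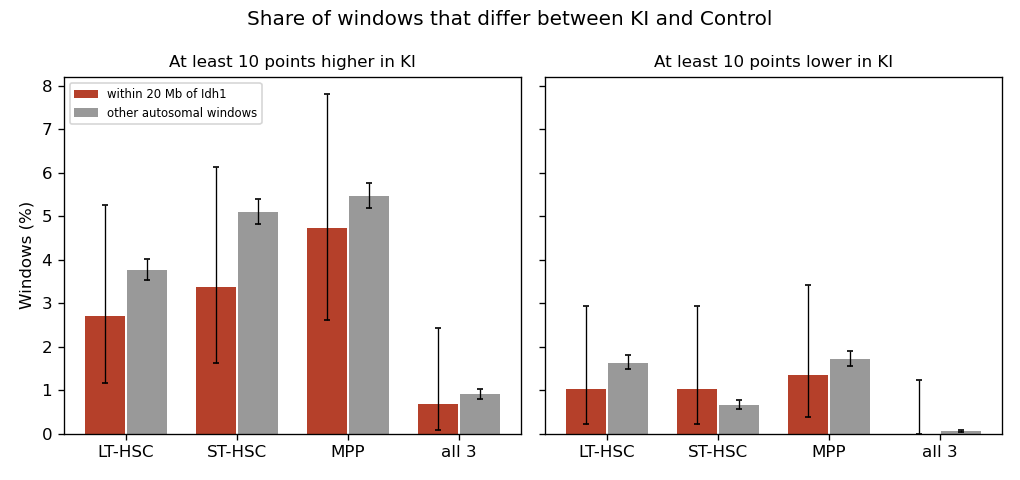
Share of windows at least 10 points higher (left) or lower (right) in KI than in Control, in percent, for LT-HSC, ST-HSC, MPP and the same direction in all 3. Red bars are the 296 windows within 20 Mb of Idh1 and grey bars the 24480 other autosomal windows, with exact binomial 95% intervals. The grey value lies within the red interval in every pair.

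The median difference between KI and Control was small in the interval. It was -0.0958 points in LT-HSC (95% interval of the median -0.336 to 0.262), 0.690 in ST-HSC (0.455 to 1.02) and 1.03 in MPP (0.718 to 1.33). The background medians were 0, 0.701 and 1.18 points. KI was higher in 145 of 296 windows in LT-HSC and in 193 in both ST-HSC and MPP, which is 49, 65.2 and 65.2%, against 48.8, 64.1 and 66.5% of the background. The ordering of the cell types was the same in the interval and in the background.

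The mean level of the 296 windows was 23.5% in KI and 23.0% in Control LT-HSC, 24.4% in KI and 22.9% in Control ST-HSC, and 25% in KI and 23.5% in Control MPP. The mean differences were 0.510, 1.44 and 1.46 points, against 0.417, 1.56 and 1.64 in the background. Single windows ranged from -22.5 to 44.1 points.

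With limma, no window of the interval passed for the genotype at an adjusted p under 0.05, against 0.00817% of the background. The fit took methylated over unmethylated reads on the log2 scale, with cell type as a block, and the lowest adjusted p was 0.406. At an unadjusted p under 0.05 there were 16 higher and 3 lower windows, which is 6.42% of the members against 7.02% of the background. This test measures the spread between the 3 cell types of single pools.

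The Fisher exact test on reads compares a pair of libraries, not the conditions. At an adjusted p under 0.01 and 10 points, it called 8 windows higher and 3 lower in KI LT-HSC, where the background shares were 3.18% and 1.28%. In ST-HSC it called 9 higher and 2 lower (background 4.09% and 0.453%), and in MPP 14 higher and 3 lower (4.74% and 1.29%). Nearly every 10-point difference thus passed on reads. Reads were summed over positions, so a read spanning several positions counts at each, which makes passing easier.

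The counts showed no steady trend with distance from Idh1. Within 5 Mb on either side there were 59 windows, and none of them was higher or lower in all 3 cell types. Their median difference was -0.191, 0.428 and 1.01 points in LT-HSC, ST-HSC and MPP. Both recurrent windows lay among the 113 windows from 5 to 10 Mb, where the medians were 0.0357, 0.769 and 0.695 points. From 10 to 15 Mb, 91 windows had medians of -0.265, 1.12 and 1.07 points, and from 15 to 20 Mb, 33 windows had -0.277, 0.514 and 1.86. At least 10 points apart in either direction in MPP were 4, 5, 9 and 0 windows of these 4 bins, from the nearest to the farthest. Those are 6.78, 4.42, 9.89 and 0%, beside 5.47% higher and 1.72% lower in the background.

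**Figure D2:**
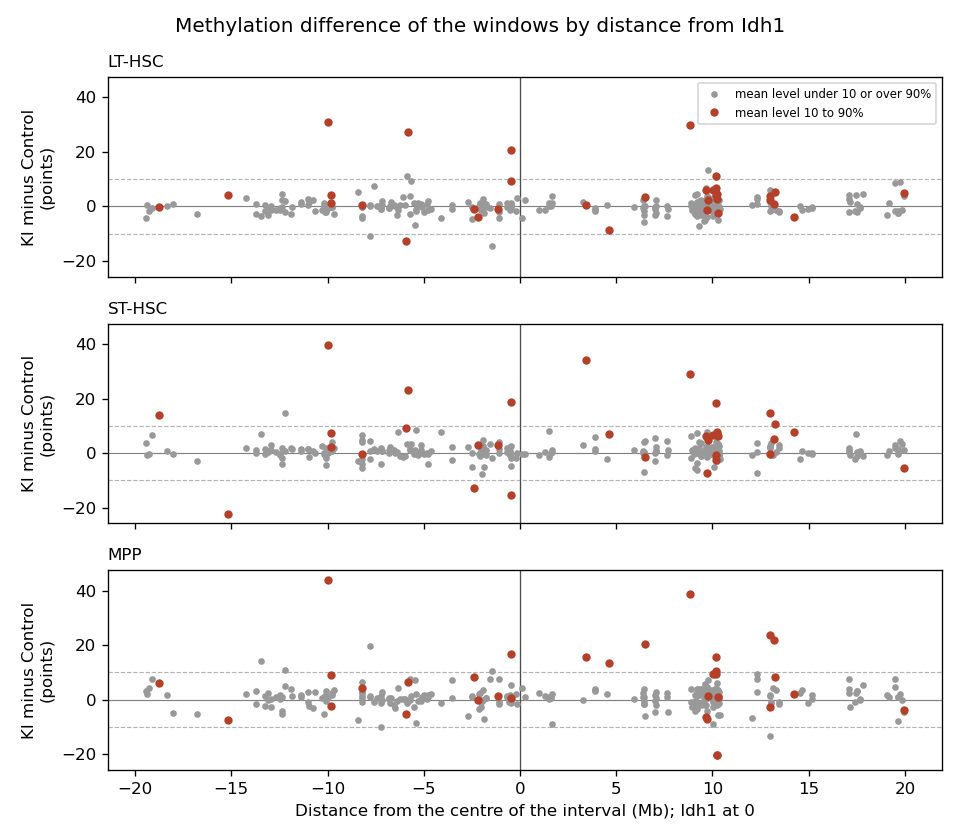
KI minus Control in window level (points) for each of the 296 windows against distance from the centre of the interval in Mb, with Idh1 at 0, in LT-HSC, ST-HSC and MPP. Red points have a mean level of 10 to 90% over the 6 libraries and grey points lie outside that range. Dashed lines mark 10 points in each direction, and 19 of the 28 windows beyond them in any panel are red.

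The 3 windows nearest to the excluded stretch on each side showed little difference between genotypes. On the side before Idh1 they were a window next to Fzd5, which encodes a Wnt receptor, the shared start of Plekhm3 and Gm51627, and a window in Akr1cl. The Akr1cl window, from base 65028001, was nearest and methylated. It stood at 98.8, 91.9 and 91.1% in KI LT-HSC, ST-HSC and MPP, against 95.6, 91.8 and 92.7% in Control. The Plekhm3 start, from base 64956001 with 23 positions, was unmethylated, at 2.41, 3.82 and 4.36% in KI and 3.93, 5.54 and 2.43% in Control. The Fzd5 window, from base 64738001, had 5.64, 6.96 and 8.96% in KI and 4.41, 8.94 and 10.2% in Control. The genotypes overlapped in all 3 windows. Another Fzd5 window, from base 64734001 and picked after its values were seen, was higher in KI. It differed by 9.17, 18.6 and 16.7 points in LT-HSC, ST-HSC and MPP. The differences of the Fzd5 windows from bases 64735001, 64736001 and 64737001 changed sign between cell types.

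On the other side, the nearest window lay in Pikfyve, which encodes the lipid kinase that makes phosphatidylinositol 3,5-bisphosphate. From base 65277001, 5 positions averaged 95.7, 96.6 and 100% in KI and 100, 97.0 and 95.7% in Control. The window in the lncRNA gene Gm28923, from base 65439001, had 97.9, 97.1 and 99.4% in KI and 95.5, 97.5 and 98.5% in Control. The start of Map2, a microtubule-associated protein of neurons, had 2.90, 5.12 and 4.37% in KI and 4.20, 5.74 and 1.74% in Control over 23 positions from base 66175001. The mean difference over the 3 cell types was between -0.651 and 0.991 points in these 6 windows. Counted by reads rather than positions, the Fzd5 window moved to 2.92 points, and with at least 20 reads per position the Map2 window moved to 3.42 points.

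The 2 windows at Idh1 itself, outside the 296, were mostly unmethylated. The window from base 65179001 (7 positions) had 2.96, 3.06 and 2.47% in KI LT-HSC, ST-HSC and MPP, against 12.9, 3.48 and 0.239% in Control. The one from base 65186001 (15 positions), at the start shared by Idh1 and Pikfyve, had 1.59, 2.79 and 1.96% in KI and 0.962, 1.63 and 0.702% in Control. Control LT-HSC stood apart in the first.

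The window in Gm10561, from base 55235001 to 55236000, had the largest mean difference of the interval. Over 7 positions in the body of this lncRNA gene, KI LT-HSC, ST-HSC and MPP stood at 61.8, 77.8 and 72.6%, against 30.8, 38.2 and 28.5% in Control. Every KI library was above every Control library, and all 7 positions were higher in KI in each cell type. The differences were 31.0, 39.5 and 44.1 points, with a mean of 38.2 ± 6.68 (SD, n = 3 cell types, each with 1 library). By reads summed over the 7 positions, 69.0% of 546 in KI LT-HSC (Wilson 95% interval 65.0 to 72.8%) compared with 37.0% of 1078 in Control LT-HSC (34.2 to 39.9%). On the log2 scale, methylated over unmethylated reads was 2.49 higher in KI (SE 0.40), with a limma adjusted p of 0.406. Its neighbour, the Mars2 promoter printed above, stayed under 2% in all 6 libraries.

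The other recurrent window lay in Tns1, which encodes tensin 1, a protein that links integrins to the actin skeleton at focal adhesions. From base 74027001, 5 positions in the gene body averaged 49.9, 70.6 and 79.4% in KI LT-HSC, ST-HSC and MPP, against 20.2, 41.8 and 40.4% in Control. KI was higher in each cell type, and all 3 KI libraries stood above all 3 Control libraries. The mean difference was 32.5 ± 5.57 points (SD over the 3 cell types), with a limma adjusted p of 0.406. Single positions varied widely, between 7.50 and 90.7% in KI LT-HSC and between 0 and 85.9% in Control MPP.

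**Figure D3:**
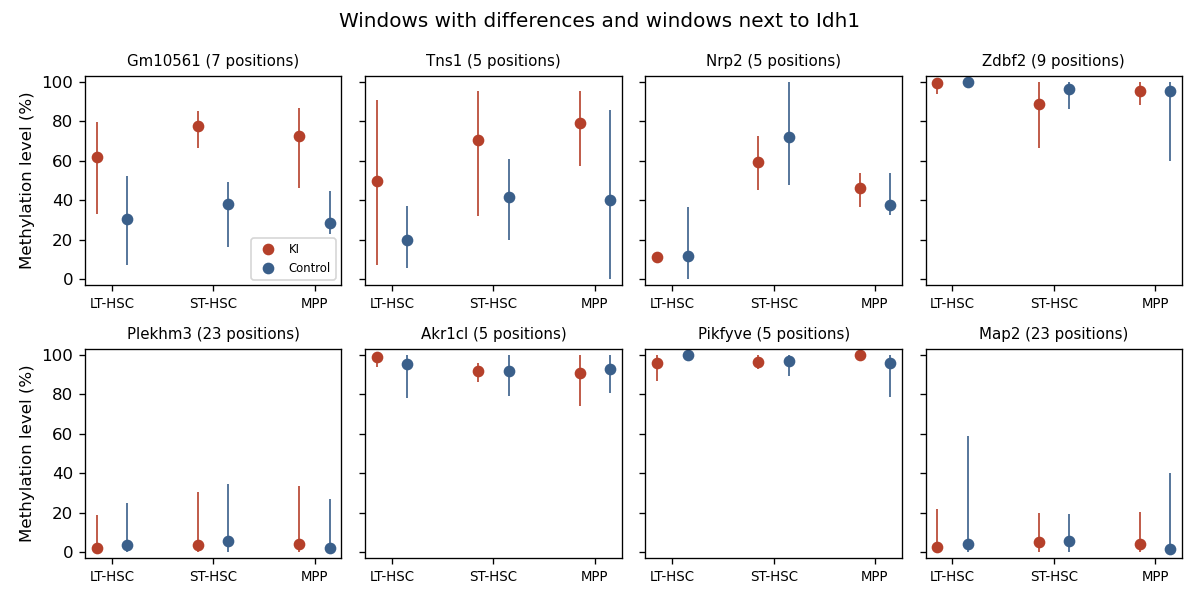
Methylation level (%) of 8 windows in LT-HSC, ST-HSC and MPP, with KI in red left of Control in blue. Points are the mean over positions and vertical lines run from the lowest to the highest position, 1 library per point. Gm10561 and Tns1 have KI above Control in all 3 cell types, and the windows next to Idh1 (Plekhm3, Akr1cl, Pikfyve, Map2) lie near 0 or near 100% in both genotypes.

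At single positions, the rule of at least 25 points in the same direction in all 3 cell types gave 13 higher positions (0.194% of 6717, against 0.137% of the background) and 1 lower position (0.0149%, against 0.0204%). Of the 13, 5 lay in the Gm10561 window and 2 in the Tns1 window, so 7 of them are the same rises as above. Another 3 lay close together in the start window of Tuba4a, which encodes an alpha-tubulin. They were between bases 75219877 and 75219938, outside its promoter of 300 bases. There the 3 positions averaged 46.5, 71.7 and 68.1% in KI LT-HSC, ST-HSC and MPP, against 7.13, 25.2 and 20.7% in Control. The whole window of 40 positions moved less, at 10.3, 16.3 and 17.9% in KI and 4.15, 9.78 and 8.64% in Control. The 7 shared positions of the Tuba4a promoter had 0.217, 1.50 and 3.94% in KI and 1.02, 1.62 and 0% in Control. The last 3 were single positions in Gm35803, in the stretch shared by Cdk5r2 and Gm16582, and in Speg. The 1 lower position was at base 74892761 in Cryba2, which encodes a lens crystallin, at 7.41, 17.2 and 0% in KI and 55.0, 78.6 and 50.0% in Control.

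Counted per cell type by the Fisher test at 25 points, the 6717 positions gave 68 higher and 86 lower in LT-HSC (background 1.28% and 1.34%), 36 higher and 12 lower in ST-HSC (0.558% and 0.115%) and 141 higher and 97 lower in MPP (2.25% and 1.49%). Of the 1072 CpGs read on both strands, 1 was called higher (0.0933%) and none lower in LT-HSC on both strands, against 0.124% and 0.0405% of the background. In MPP none was called higher and 1 lower (0.0933%), against 0.199% and 0.0575%. None was called in ST-HSC, against 0.0640% higher and 0.00523% lower in the background.

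Most windows that differed by 10 points had intermediate levels of 10 to 90%. There were 33 of them, 11.1% of the interval against 14.4% of the background, and KI was higher in 24, 23 and 24 of the 33 in LT-HSC, ST-HSC and MPP. Those are 72.7, 69.7 and 72.7%, against 63.8, 78.1 and 66.5% of the background windows at these levels. Their mean differences were 4.81, 6.56 and 6.49 points, against 3.36, 6.78 and 4.90. At least 10 points higher were 5, 9 and 10 of the 33, which is 15.2, 27.3 and 30.3%, against 21.5, 30.9 and 28.3% of such background windows. At least 10 points lower were 1, 3 and 2, which is 3.03, 9.09 and 6.06%, against 7.75, 3.20 and 8.26%. The 214 windows under 10% had mean differences of -0.147, 0.750 and 1.21 points and the 49 windows over 90% had 0.486, 1.00 and -0.830. The background values were -0.159, 0.704 and 1.27 points under 10%, and 0.196, 0.571 and 0.471 over 90%. The MPP mean over 90% thus had the opposite sign there. The MPP medians over 90% were negative in both, at -0.986 points in the interval and -0.256 in the background.

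**Figure D4:**
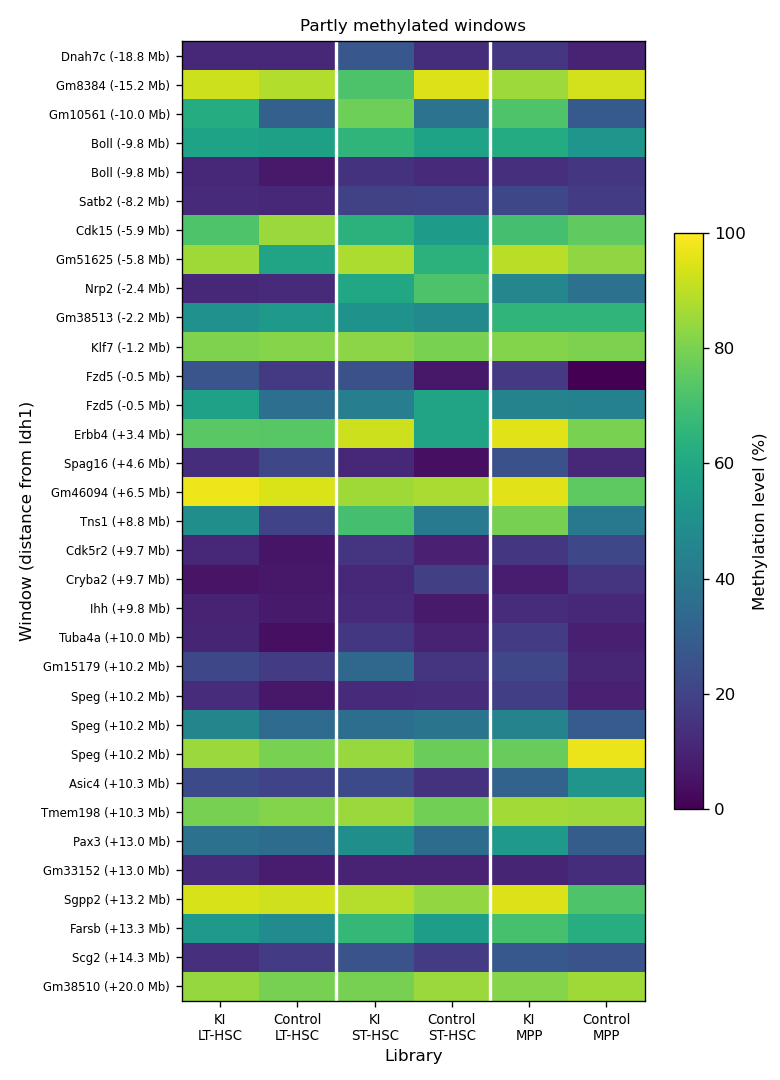
Methylation level (%) of the 33 windows at 10 to 90%, in rows ordered by distance from Idh1 (Mb, with the gene name), in 6 columns with KI left of Control for LT-HSC, ST-HSC and MPP. Gm10561 and Tns1 are brighter in the KI column of every pair, while Gm8384 is darker in KI ST-HSC.

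In all, 28 windows were at least 10 points apart in some cell type, and 19 of them were at 10 to 90%. The counts in this paragraph were not taken over the background, except those in all 3 cell types, given above. Higher in KI in exactly 1 cell type were 12, in exactly 2 were 7, and in all 3 were 2. Lower in exactly 1 cell type were 10, and none was lower in 2 or 3. Among the 7, picked here after their values were seen, a window in Erbb4, a receptor of neuregulins, stood at 74.3, 92.5 and 95.5% in KI LT-HSC, ST-HSC and MPP, against 74.0, 58.3 and 79.9% in Control. The genotypes thus parted by 10 points or more in ST-HSC and MPP and by 0.380 points in LT-HSC. A window in Pax3, a transcription factor of neural crest and muscle, parted in the same cell types, with 37.6, 49.8 and 53.5% in KI and 35.3, 35.2 and 29.6% in Control. The intergenic window nearest to Gm51625 parted in LT-HSC and ST-HSC instead, with 85.7, 87.7 and 89.6% in KI and 58.3, 64.4 and 83.3% in Control.

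The largest fall in any cell type was also chosen after its values were seen. It was an intergenic window nearest to Gm8384, from base 50025001, with 92.5, 72.1 and 85.5% in KI LT-HSC, ST-HSC and MPP, against 88.3, 94.6 and 93.0% in Control, over 5 positions. KI was lower in ST-HSC and MPP and higher in LT-HSC.

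The genes of 6 lists by function were examined next, and in 5 of these lists most windows were under 10%. Of 27 genes of blood and immune cells in the interval, 18 had a window, giving 29 windows, 24 of them under 10%. Those 24 lay between 0 and 7.69% in the KI libraries and between 0 and 9.24% in the Control libraries. None of the 29 was 10 points apart in all 3 cell types, and 1 had an unadjusted limma p under 0.05, which 7.02% of the background windows had.

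The developmental regulators and signalling genes had the most windows, 68 from 24 of 26 genes, with 49 under 10%. Their median differences were 0.202, 1.07 and 2.57 points in LT-HSC, ST-HSC and MPP, beside the interval's -0.0958, 0.690 and 1.03. Of the 68, 9 had an unadjusted limma p under 0.05, against 7.02% of the background. The lists were chosen with earlier results of these data known, and several windows share a gene, as in Speg. These values therefore cannot show whether developmental genes differ more often than others. The Tns1 window is the 1 of the 68 that was higher in all 3 cell types. The other 4 lists had none. The metabolic genes had 20 windows from 11 of 21 genes, the DNA repair genes 8 windows from 5 of 8, and the matrix genes, the exception with a median level of 95.5%, 9 windows from 4 of 7, of which 0, 0 and 1 had an unadjusted limma p under 0.05. No window of any list passed limma at an adjusted p under 0.05.

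Zdbf2 and Gpr1 belong to an imprinted cluster, in which expression depends on the parent a copy came from, and Adam23 is their neighbour. Their 5 windows were described as a list, all lying before Idh1. The window shared by Gpr1 and the Zdbf2 transcript start, from base 63200001 with 9 positions, was methylated at 99.2, 88.9 and 95.2% in KI LT-HSC, ST-HSC and MPP, against 100, 96.6 and 95.6% in Control. KI ST-HSC was the lowest of the 6. A window of Zdbf2 within the lncRNA gene 1700039I01Rik, from base 63248001, had 5.55, 8.44 and 5.68% in KI and 2.81, 3.76 and 5.91% in Control. The window from base 63273001, at the start of both Zdbf2 and Gm11608, had 75 positions, at 7.28, 9.50 and 10.1% in KI and 5.79, 6.84 and 6.43% in Control. Over the whole window KI was higher in each cell type, by 2.60 points in the mean. None of the measured promoters of 300 bases there was higher in KI in each cell type. Over 9 positions of the Zdbf2 promoter, KI had 18.02, 16.96 and 17.56%, against 19.98, 27.14 and 15.28% in Control. A Gm11608 promoter (11 positions) was lower in KI throughout, at 16.76, 14.65 and 14.37%, against 17.47, 22.21 and 15.44%. Another (28 positions) was lower in KI in ST-HSC alone, at 8.94% against 11.41%.

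The 2 Adam23 windows were unmethylated. From base 63445001, 9 positions had 1.21, 1.01 and 0.793% in KI LT-HSC, ST-HSC and MPP, against 1.32, 1.78 and 0% in Control. From base 63446001, 27 positions had 3.83, 5.40 and 2.69% in KI and 3.01, 4.19 and 1.91% in Control.

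Between cell types, MPP and LT-HSC differed in a few windows. In KI, the MPP library exceeded the LT-HSC library by 10 points or more in 11 windows and fell short by as much in 1, against 3.75% and 1.12% of the background. In Control, 11 were higher and 6 lower, against 4.74% and 3.29%. Higher in MPP in both genotypes were 4 (1.35% of the 296, against 1.43% of the background) and lower in both none, against 0.364%. With limma none of the 296 passed at an adjusted p under 0.05, against 0.0% of the background, and 9.46% had an unadjusted p under 0.05, against 7.39%.

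The largest of these lay in Nrp2, which encodes neuropilin 2, a coreceptor of semaphorins and vascular endothelial growth factors. From base 62795001, 5 positions stood at 11.2, 59.5 and 46.3% in KI LT-HSC, ST-HSC and MPP, against 12.1, 72.2 and 37.8% in Control. LT-HSC was low and ST-HSC and MPP were high in both genotypes, while KI ST-HSC had 54 reads behind its level. MPP minus LT-HSC was 35.1 points in KI and 25.8 in Control. The Tns1 window followed, 29.4 points higher in KI MPP than in KI LT-HSC and 20.3 points in Control. The window in Farsb, the beta subunit of phenylalanyl-tRNA synthetase, was 16.9 points higher in KI MPP and 14.1 points higher in Control MPP, but counted by reads the value in KI was 8.72 points. An intergenic window nearest to Gm38513 is the other of the 4, at 14.8 points in KI and 11.0 in Control, and by reads it reversed in KI, to -2.62 points. By reads, 1.01% of the 296 windows were higher in MPP in both genotypes, against 1.51% of the background.

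Positions listed in only 1 genotype gave a further readout of the interval. A file lists a position only at 10 reads or more, so a position not listed may still have been read. The KI files list 854387, 1040407 and 1069270 positions in LT-HSC, ST-HSC and MPP, and the Control files 958850, 936607 and 931370. Of 15442 positions listed for any library, 52 were listed in all 3 KI files and no Control file (0.337%, against 0.476% of the background). In the reverse case there were 13 (0.0842%, against 0.0730%). The 52 fell into 18 stretches, and the largest, 11 positions between bases 66863165 and 66863218, lay in Acadl, which encodes the long-chain acyl-CoA dehydrogenase. The 13 fell into 9 stretches of at most 3 positions. In the first 5 Mb after Idh1, which has 974 positions, 11 were listed in KI alone (1.13%) and 4 in Control alone (0.411%). The 11 there are the Acadl stretch, so the share of KI-only positions in that bin rests on 1 stretch. The share was higher far away, from 15 to 20 Mb before Idh1, where 10 of 669 positions (1.49%) were listed in KI alone and 2 (0.299%) in Control alone. Those 10 are a stretch of 4 positions in Dnah7c and an intergenic stretch of 6, so this share too rests on few stretches.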

How the data were processed

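The deposited tables give, per cytosine position, a count of reads (coverage) and, per the file headers, the percent that read as C or as T. Every position had at least 10 reads. Per the submitters' processing notes, Bismark 0.10.0, SAMtools 1.0, methylKit 0.9.1 and build mm10 were used. The sources used here give neither settings nor duplicate removal nor bisulfite conversion. Coverage times percent C gave whole methylated reads within 0.01% of the coverage.

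Positions in all 6 libraries were averaged per 1 kb window. limma 3.58.1 (R 4.3.3) was fitted over all autosomal windows with a prior count of 1, cell type as a block and a trended variance. Fisher exact tests on reads were two-sided, and p-values were Benjamini-Hochberg adjusted over all autosomal windows or positions. Both were tested on simulated data. Counts of windows 10 points apart are descriptions without a test. Genes and promoters came from RefSeq GRCm38.p6. The members and the 6 gene lists were chosen with earlier results of these data known. Named by rule were windows called by limma or 10 points or more apart in the same direction in every cell type, the 3 nearest to Idh1 on each side, every window of the imprinted list, and the 3 largest differences between MPP and LT-HSC shared by both genotypes. Alternatives changed the position and coverage minimum, the threshold, the width of the interval, the weighting, depth and the libraries used.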

Additional observations from a re-analysis of the deposited data

Results flagged for a closer look

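In 3 windows KI was at least 10 points higher than Control in one cell type and at least 10 points lower in another, and the difference between cell types was not tested. The share of such windows in the background was not counted. The window in Fzd5 from base 64735001 differed by 20.8 points for LT-HSC, by -15.6 for ST-HSC and by 0.751 for MPP. At the start of Fastkd2 and Mdh1b, from base 63730001, they were -14.6, -1.81 and 10.6 points, in that order. In 1700066M21Rik, from base 57378001, they were -10.7, 4.43 and 19.7 points. These 3 windows had 5 to 8 positions each.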

How the results depend on the processing

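The share of windows at least 10 points higher in KI in all 3 cell types rests on 2 windows. It was 0 with at least 10 shared positions (background 0.536%) and within 5 Mb (0.902%). Both settings leave out these 2 windows by definition, since the windows hold 7 and 5 positions and lie 5 to 10 Mb from Idh1. The share was 1.16% within 10 Mb (0.898%), where the same 2 windows stand among 172. It was 1.35% when positions were thinned to 10 reads (background 0.952%) and 1.01% by reads (0.915%). At 5 points it was 2.03% (2.24%), and among windows at 10 to 90% it was 6.06% (6.20%). With at least 3 positions it was 0.713% (background 1.12%), and at 20 points 0.676% (background 0.127%). At a coverage of 20 reads it was 0.478%, which is 1 of 209 windows (background 0.792%). Among the other windows of chromosome 1 alone, 13 of 1162 (1.12%) were higher in all 3 cell types. Without the libraries of 1 cell type the rule covers only the remaining cell types, so the share can only stay or rise. It was 2.36% without LT-HSC (background 2.11%), and 1.01% without ST-HSC (1.35%) or without MPP (1.72%). The median difference in LT-HSC, whose interval includes 0, did not keep its sign, at 0.161 points with 20 reads and 0.0142 within 10 Mb. Medians were 0.428 points in ST-HSC within 5 Mb, and 3.34, 6.23 and 6.23 points in LT-HSC, ST-HSC and MPP at 10 to 90%. When thinned, the Fisher test called 3, 5 and 7 windows in LT-HSC, ST-HSC and MPP (1.01, 1.69 and 2.36%, against 0.842, 0.997 and 1.39% of the background). At 20 points it called 4, 5 and 6 (1.35, 1.69 and 2.03%, against 1.25, 1.57 and 1.78%). Of positions it called 0 in each cell type when thinned, in the interval and in the background alike. With 10 reads on each side a position can hardly reach this adjusted p, so that count decides nothing. When both strands had to be called, it called 1, 0 and 1. Positions listed in at least 2 files of 1 genotype and none of the other were 2.32% in KI (background 2.67%) and 0.654% in Control (0.579%). By reads, an alternative chosen after seeing the data, MPP minus LT-HSC in KI reversed to -2.62 points near Gm38513 and was 8.72 in Farsb. limma called none of the 296 under any alternative, with or without the cell type block that pairs KI with Control. Each group is 1 library without a replicate number, so no other pairing exists. The cause of these shifts was not tested.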
